A study of Homo sapiens with 10 samples.

Results

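Retinoic acid is made from vitamin A, held and moved by small binding proteins, read by nuclear receptors and broken down by cytochrome P450 enzymes. The genes described here cover those steps: the retinaldehyde dehydrogenases ALDH1A1, ALDH1A2 and ALDH1A3, the retinoic acid hydroxylases CYP26A1 and CYP26B1, the cellular retinoic acid-binding proteins CRABP1 and CRABP2, the retinoic acid receptor beta gene RARB and the retinal reductase DHRS3. These 9 genes were taken by name, with earlier results of these data known, out of 24050 genes listed in either count table. They were followed in all 10 RNA-seq libraries of a study of ZNF274, a KRAB zinc finger protein that acts as a repressor.

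As background, retinoic acid carries positional information in the early embryo, above all along the head-to-tail axis of the neural tube. It acts through receptors (RAR) paired with retinoid X receptors (RXR) on response elements in DNA. RARB, CYP26A1 and DHRS3 are textbook targets that retinoic acid itself induces, and the CYP26 enzymes and DHRS3 lower its level in turn. CRABP1, CRABP2 and the ALDH1A genes mark regions of the embryo that respond to or make the signal.

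The libraries formed 4 groups: wild-type (WT) HEK293T cells (3 libraries, S15, S16 and S17), ZNF274 knockout (KO) HEK293T cells (3 libraries, S18, S19 and S20), WT neural progenitor cells (NPCs; 2 libraries, S3 and S5) and ZNF274 KO NPCs (2 libraries, S1 and S2). HEK293T is a line derived from human embryonic kidney, and the NPCs were differentiated through embryoid bodies from H1, a human embryonic stem cell line. The KO cells carried a CRISPR-Cas9 deletion of the ZNF274 locus. The study describes its NPC values as averages over parental cell lines, and whether the HEK293T replicates were separate clones or cultures is not given in the sources used here. The labels name no retinoid treatment, and whether the media held retinoids is not given in the sources used here.

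ZNF274 had 0 counts in all 5 KO libraries, against 14.6 to 16.7 CPM in WT HEK293T cells and 23.2 and 25.4 CPM in WT NPCs. CPM here is a gene's count per 1000000 of the library's counts on genes, after TMM scaling within each table. Libraries held 21421013 to 32285876 counts in HEK293T cells and 18621266 to 23035490 in NPCs, so that the floor of 3 counts stood at 0.0921 to 0.131 CPM and at 0.135 to 0.154 CPM respectively (counting error only). KO library S18, the shallowest of the HEK293T set, stood apart: 690 of 19018 genes lay over 2-fold from the mean of the other KO libraries, against 225 for S19, 208 for S20 and 27 to 109 for the WT libraries. Results that rest on S18 are therefore given with and without it.

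The labelled identity of the cells was checked against marker genes. NES, a neural progenitor filament gene, stood at 2264 to 3183 CPM in the 4 NPC libraries against 13.6 to 22.3 CPM in the 6 HEK293T libraries. But NES did not stand for the list in KO NPCs, where 9 of 11 neural progenitor markers fell, against 8.36% of all genes tested. SOX2 stood at 227 and 219 CPM in WT NPCs and at 12.7 and 21.1 CPM in KO NPCs, near the 6.07 to 11.0 CPM of HEK293T cells. The progenitor label of the KO NPCs therefore rests on part of the list only. OTX2, among the 9 that fell, still averaged 21.4 CPM there against 0 in both HEK293T groups. Of 11 mesenchymal markers tested, 10 were called higher in WT NPCs than in WT HEK293T cells and 1 lower. Over all genes that comparison called 25.2% higher and 15.5% lower. HES5, a Notch target of progenitors, stayed at 0 to 0.284 CPM in the NPCs. The kidney markers PAX2 and PAX8 reached at most 0.860 and 0.0614 CPM in HEK293T cells. In bulk libraries, fewer cells expressing a gene and less RNA per cell cannot be told apart.

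The genes lie on 6 chromosomes of hg19, and all carry protein-coding annotation. ALDH1A1 (ENSG00000165092) spans chr9:75515587-75695358 on the minus strand, and its product oxidises retinaldehyde to retinoic acid. ALDH1A2 (ENSG00000128918), the main dehydrogenase of the embryonic trunk mesoderm, spans chr15:58245622-58790065 on the minus strand. ALDH1A3 (ENSG00000184254), the dehydrogenase of the ventral eye and nasal region, lies at chr15:101417919-101456831 on the plus strand. CYP26A1 (ENSG00000095596), at chr10:94833232-94837642 on the plus strand, and CYP26B1 (ENSG00000003137), at chr2:72356367-72374991 on the minus strand, encode enzymes that inactivate retinoic acid. CRABP1 (ENSG00000166426) lies at chr15:78632695-78640567 on the plus strand and CRABP2 (ENSG00000143320), whose product delivers retinoic acid to the nucleus, at chr1:156669398-156675608 on the minus strand. RARB (ENSG00000077092) spans chr3:24729378-25639423 on the plus strand. DHRS3 (ENSG00000162496), whose product returns retinaldehyde to retinol, spans chr1:12627939-12678216 on the minus strand.

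Receptor-binding elements were searched in RefSeq promoter windows (build GRCh38.p14) that run from 250 bases before to 50 after a start site. The pattern was a direct repeat of the receptor hexamer (NGNTCA, where the first N was a purine and the other was G or T) with a spacer of 1, 2 or 5 bases (DR1, DR2 and DR5), on both strands. Of 16 windows of the 9 genes, 2 held a DR5 and none held a DR1 or DR2, beside 31 of 35116 windows with a DR5 over all genes (0.0883%), 46 with a DR1 (0.131%) and 14 with a DR2 (0.0399%). The 2 windows belonged to RARB, which rose in KO NPCs, and CYP26A1, which had 0 counts there. Their elements are shown on hg19 with the transcript's strand, repeats and spacer in capitals and 6 flanking bases on each side.
RARB, chr3:25469695-25469723, plus strand: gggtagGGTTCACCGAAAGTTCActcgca
CYP26A1, chr10:94833554-94833582, plus strand: taaagaTGAACTTTGGGTGAACTaattgt
The RARB element, read on the plus strand, began 53 bases before the RefSeq start site at chr3:25469754. That start lies inside the gene, with RefSeq starts upstream at chr3:24870812 and chr3:25382293 and another downstream at chr3:25499801. Counts are per gene and do not separate the start sites. The CYP26A1 element began 90 bases before the RefSeq start site at chr10:94833650, downstream of another at chr10:94833232. It read on the minus strand, so that its repeats appear reversed above. In the GENCODE annotation on hg19 the RARB element lies within the 5′ untranslated region of 3 transcripts of that gene and the CYP26A1 element within that of 1. A match is a description of the sequence, not evidence of binding, and windows with no match say only that the pattern is not in them. The genes were chosen by name, with RARB and CYP26A1 known as targets of retinoic acid, so the shares of windows carry no test.

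The first comparison asked how much of each step the 2 WT cell types held. On the scale of CPM per kilobase of exon (RPKM), used to compare genes, CRABP1 led in WT NPCs at 351 ± 27.5 (SD, n = 2), followed by CRABP2 at 73.3 ± 42.5. The other 7 genes stayed at or below 0.131 RPKM there. In WT HEK293T cells CRABP2 stood at 4.41 ± 4.17 RPKM (SD, n = 3), ALDH1A2 at 1.53 ± 0.410, CYP26A1 at 1.51 ± 0.425, RARB at 0.784 ± 0.123 and CYP26B1 at 0.613 ± 0.157. ALDH1A2 and CYP26A1 did not differ beyond their spread in that group, and CRABP1 had 0 counts in all 6 HEK293T libraries.

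**Figure D1:**
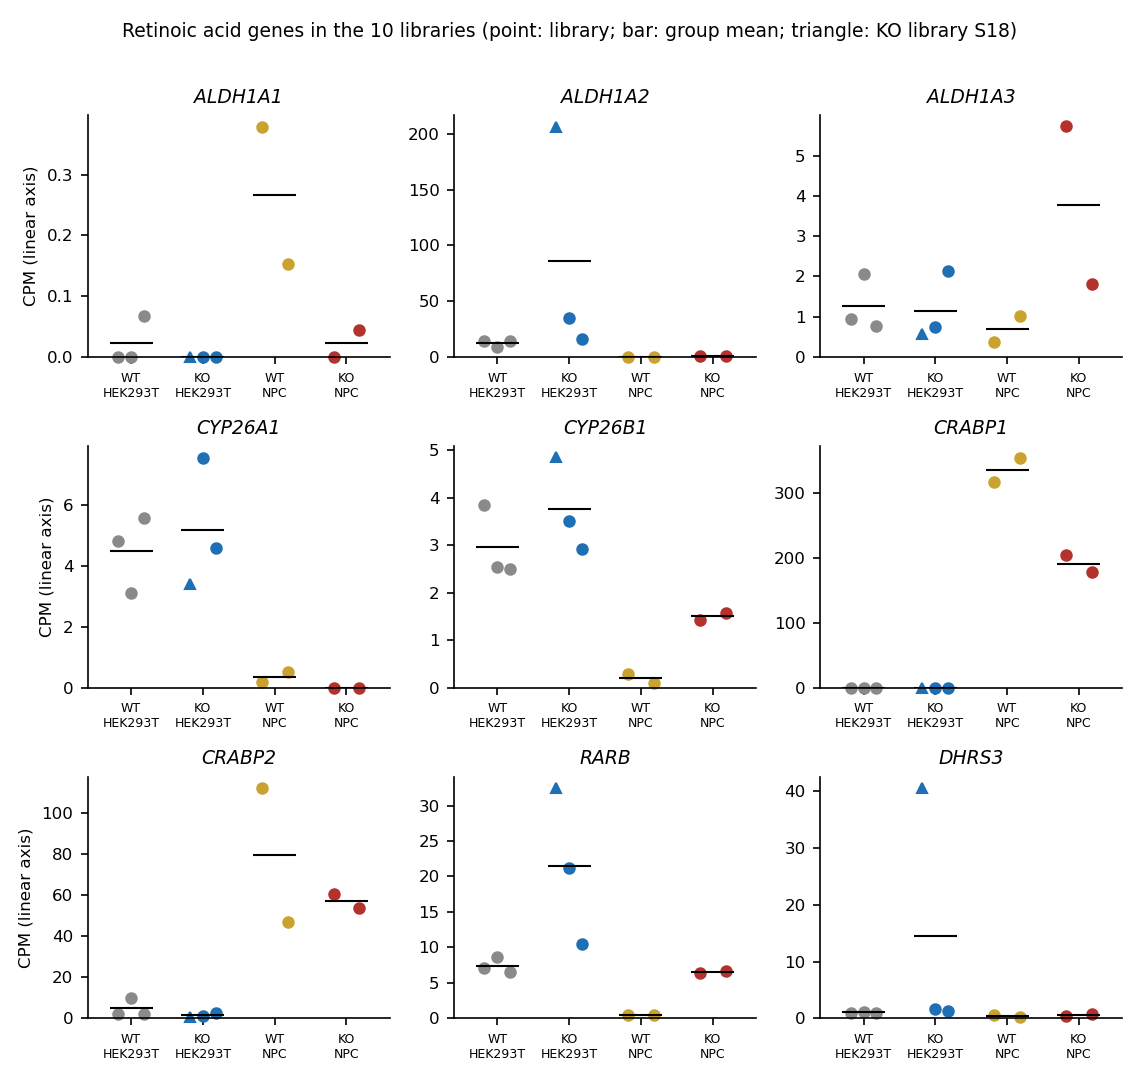
CPM of each of the 9 genes (vertical axes, linear, 1 scale per gene) in the 10 libraries, grouped as WT HEK293T, KO HEK293T, WT NPC and KO NPC; points are libraries, bars are group means and the triangle is KO library S18. CRABP1 and CRABP2 are higher in NPCs, and ALDH1A2, RARB and DHRS3 reach their highest values in S18.

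Both binding proteins were higher in WT NPCs than in WT HEK293T cells. CRABP1 stood at 318 and 355 CPM against 0 counts, which is at least 3307-fold higher (3 counts per library as the floor, adjusted p = 5.05e-09 by edgeR's quasi-likelihood test). CRABP2 stood at 112 and 46.8 CPM in WT NPCs against 2.17, 9.98 and 2.17 CPM in WT HEK293T cells, with a log2 fold change of 4.06 (SE 0.613, adjusted p = 0.000114). CRABP2 varied within both groups, with S3 above S5 and S16 above the other WT HEK293T libraries, yet the groups did not overlap.

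The dehydrogenase gene ALDH1A2, both hydroxylase genes and the receptor gene were lower in WT NPCs. ALDH1A2 stood at 14.6, 8.64 and 14.2 CPM in WT HEK293T cells and at 0.284 and 0.205 CPM in WT NPCs (log2 fold change −5.63, SE 1.24, adjusted p = 0.00188). CYP26A1 (−3.67, SE 0.569, adjusted p = 0.000198), CYP26B1 (−3.88, SE 0.520, adjusted p = 4.43e-05) and RARB (−3.96, SE 0.502, adjusted p = 2.79e-05) were likewise lower. ALDH1A1 passed as higher in NPCs (adjusted p = 0.0456) on 8 and 3 counts against 0, 0 and 2, and it was called under 8 of 14 alternative settings, with adjusted p between 0.00593 and 0.290. ALDH1A3 (adjusted p = 0.359) and DHRS3 (adjusted p = 0.454) were not called.

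In all, 3 members were higher and 4 lower, in a comparison that called 25.2% of 19255 genes higher and 15.5% lower. The call on ALDH1A2 was lost with voom (adjusted p = 0.0963; range over 16 settings 1.44e-06 to 0.0963), and DHRS3 was called lower when S18 was left out of the shared estimate of spread (adjusted p = 0.0317; range 0.0317 to 0.695). The median log2 difference of the 9 was −1.29. Each cell type has its own count table, so that cell type and any other difference between the tables cannot be told apart in this comparison.

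The second comparison asked what loss of ZNF274 did to these genes in NPCs. RARB, CYP26B1 and ALDH1A3 rose, none fell past the thresholds (adjusted p below 0.05 and fold change above 2), and the 3 risers belong to different steps: reception, breakdown and synthesis. Over all 20577 genes tested, 8.45% were called higher and 8.36% lower, and the median log2 fold change was −0.02 against 0.54 over the 9 members. At an unadjusted p below 0.05, 6 of the 9 and 8300 of all genes stood out, among them the lower genes CYP26A1 and CRABP1; DESeq2 and voom also called no member lower.

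RARB showed the clearest change. It stood at 0.426 and 0.512 CPM in WT libraries S3 and S5 (9 and 10 counts) and at 6.37 and 6.71 CPM in KO libraries S1 and S2 (129 and 149 counts). Its KO libraries were 13.6 and 14.3 times the WT mean, with almost no spread within either genotype. The log2 fold change was 3.79 (SE 0.360, 95% interval 2.94 to 4.64, adjusted p = 0.000510), and RARB was called under all 11 alternative settings (adjusted p 4.09e-13 to 0.00640). In KO NPCs it reached the level of WT HEK293T cells, where it stood at 7.04, 8.71 and 6.47 CPM, and the ranges of those groups overlapped (levels set across tables that were scaled separately).

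CYP26B1, the hydroxylase of hindbrain and limb, stood at 0.284 and 0.102 CPM in WT NPCs (6 and 2 counts) and at 1.43 and 1.58 CPM in KO NPCs (29 and 35 counts). WT library S5 was under the floor of 3 counts, and the KO libraries agreed closely. The log2 fold change was 2.91 (SE 0.654, adjusted p = 0.0161). Without KO library S1 the adjusted p was 0.0820, and without S2 it was 0.0947; over 11 settings it ran from 0.000677 to 0.0947.

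CYP26A1, the other hydroxylase, had the opposite values. It had 4 and 10 counts in WT NPCs (0.189 and 0.512 CPM) and 0 in both KO libraries, so that WT was at least 2.48-fold higher than the floor of 3 counts per KO library. The main test gave an adjusted p of 0.0631 and so no call. It was called lower without WT library S3 (adjusted p = 0.0151) and with all 10 libraries in 1 fit (adjusted p = 0.0130), and over 10 settings the adjusted p ran from 0.0130 to 0.187. Among reads of CYP26A1 and CYP26B1 per exon length, CYP26A1 made up 52.1% and 89.1% in the WT libraries, on 10 and 12 counts in all. It made up 0% in the KO libraries, on 29 and 35. A further hydroxylase gene, CYP26C1, is given below and was not in that sum.

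ALDH1A3 stood at 0.379 and 1.02 CPM in WT NPCs (8 and 20 counts) and at 5.73 and 1.80 CPM in KO NPCs (116 and 40 counts). All KO values lay above all WT values, and KO library S1 was over 3 times S2. The log2 fold change was 2.42 (SE 0.703, adjusted p = 0.0407). Without S1 it fell to 1.36 with an adjusted p of 0.319, with voom the adjusted p was 0.0909, and over 11 settings it ran from 5.39e-07 to 0.319.

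The other dehydrogenases had few counts in NPCs, though ALDH1A2 lay well above the floor of 3 counts in KO libraries. ALDH1A2 had 6 and 4 counts in WT and 23 and 15 in KO libraries (0.284 and 0.205 against 1.14 and 0.676 CPM; log2 fold change 1.86, SE 0.686, adjusted p = 0.0861). ALDH1A1 had 8 and 3 counts in WT and 0 and 1 in KO libraries (adjusted p = 0.152). Of the dehydrogenase reads per exon length, ALDH1A3 made up 29.7% and 70.8% in WT and 88.5% and 77.3% in KO libraries.

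The binding proteins moved little beside these folds. CRABP1 stood at 318 and 355 CPM in WT and at 204 and 178 CPM in KO NPCs, a log2 fold change of −0.81 (SE 0.118, adjusted p = 0.00280) that did not reach 2-fold and was therefore not called. With the p-value threshold alone CRABP1 counted as lower, which brought the members called to 4. CRABP2 stood at 112 and 46.8 CPM in WT and at 60.6 and 53.6 CPM in KO NPCs, so that the KO values lay between the WT values (log2 fold change −0.47, 95% interval −1.30 to 0.35, adjusted p = 0.359). CRABP1 made up 76.2% and 89.5% of binding-protein reads per exon length in WT and 79.2% and 79.0% in KO NPCs. DHRS3 stood at 0.521 and 0.307 CPM in WT and 0.494 and 0.721 CPM in KO NPCs, and the groups overlapped (log2 fold change 0.54, 95% interval −1.06 to 2.15, adjusted p = 0.600).

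By position alone, KO libraries lay wholly above WT for RARB, CYP26B1, ALDH1A3 and ALDH1A2 (4 of 9) and wholly below for CYP26A1, CRABP1 and ALDH1A1 (3 of 9). With 2 libraries against 2, that held for 33.3% of all genes tested in the upward and 33.8% in the downward direction. The members' shares were read against that background and taken as no result.

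**Figure D2:**
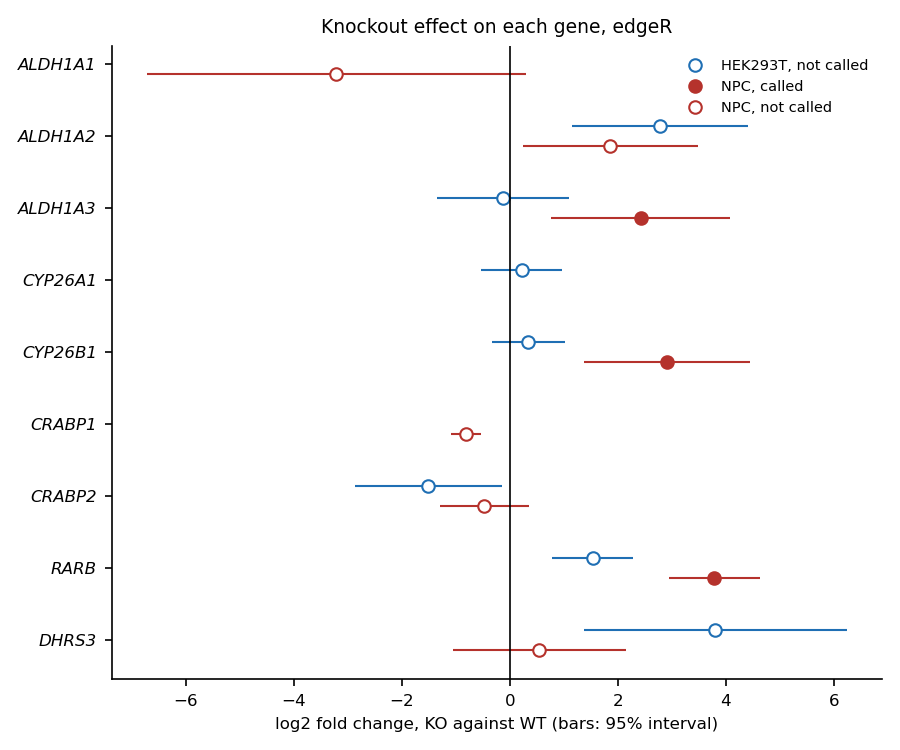
Log2 fold change of KO against WT (horizontal axis) with its 95% interval for each gene in HEK293T cells (3 against 3 libraries) and NPCs (2 against 2), from edgeR; filled points passed both thresholds. ALDH1A1 and CRABP1 were not tested in HEK293T cells, and CYP26A1 in NPCs is left out because its KO libraries had 0 counts; RARB in NPCs lies at 3.79 and the filled points are all on the right of 0.

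The wider pathway was followed in 4 lists of other genes. Among 8 retinoic acid target genes tested in NPCs, 4 rose and 1 fell, with a median log2 fold change of 1.81. Over all 20577 genes tested in NPCs, 8.45% were called higher and 8.36% lower, the background for each pathway list there. TGM2, a tissue transglutaminase, went from 2.93 and 0.973 CPM to 240 and 187 CPM (log2 fold change 6.75, adjusted p = 8.36e-05). BHLHE40, a transcriptional repressor, went from 6.91 and 6.19 to 61.4 and 54.3 CPM (3.14, adjusted p = 5.44e-05), and RET, the receptor of GDNF ligands, from 0.947 and 1.33 to 12.2 and 9.23 CPM (3.23, adjusted p = 0.000682). PLAAT4, a phospholipase, had 0 counts in WT and 0.543 and 0.811 CPM in KO libraries, which is at least 4.58-fold higher with an adjusted p of 0.0178.

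MEIS1, a homeobox partner of HOX proteins, fell from 4.21 and 7.32 to 0.247 and 0.270 CPM (−4.44, adjusted p = 0.000888). So the target list held changes in both directions.

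Of 8 genes for retinol uptake, storage and transport, 2 fell and none rose (5 at an unadjusted p below 0.05; DESeq2 called 2 lower and voom 0). LRAT, which stores retinol as esters, went from 17.6 and 97.9 CPM to 0.148 and 0.721 CPM (−7.00, adjusted p = 0.00284). BCO1, which cleaves carotene, went from 1.33 and 3.58 to 0.0494 and 0.495 CPM (−3.11, adjusted p = 0.0376).

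Of 8 oxidoreductases none was called (2 at an unadjusted p below 0.05; 0 by DESeq2 and by voom). Of 11 receptors and co-regulators, RXRG, a retinoid X receptor, rose from 0.947 and 0.102 to 6.22 and 1.89 CPM (2.91, adjusted p = 0.0483), and voom called none. In the WT comparison, 6 of the 8 uptake genes were called higher in NPCs (TTR, LRAT, BCO1, STRA6, RBP4 and RBP7), against 4 by DESeq2 and 5 by voom. That comparison called 25.2% of 19255 genes higher and 15.5% lower, the background for each list count in it. TTR had 81 counts in S3 and 0 in S5, and RBP4 (3 and 5 counts) and RBP7 (2 and 8) were close to the floor. Of 7 oxidoreductases ADH5 was higher and RDH10, RDH12, RDH13 and RDH14 were lower, of 7 target genes RARRES1 was higher and BHLHE40 and MEIS2 lower, and none of 11 receptors and co-regulators was called (4 at an unadjusted p below 0.05; 0 by DESeq2 and by voom).

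**Figure D3:**
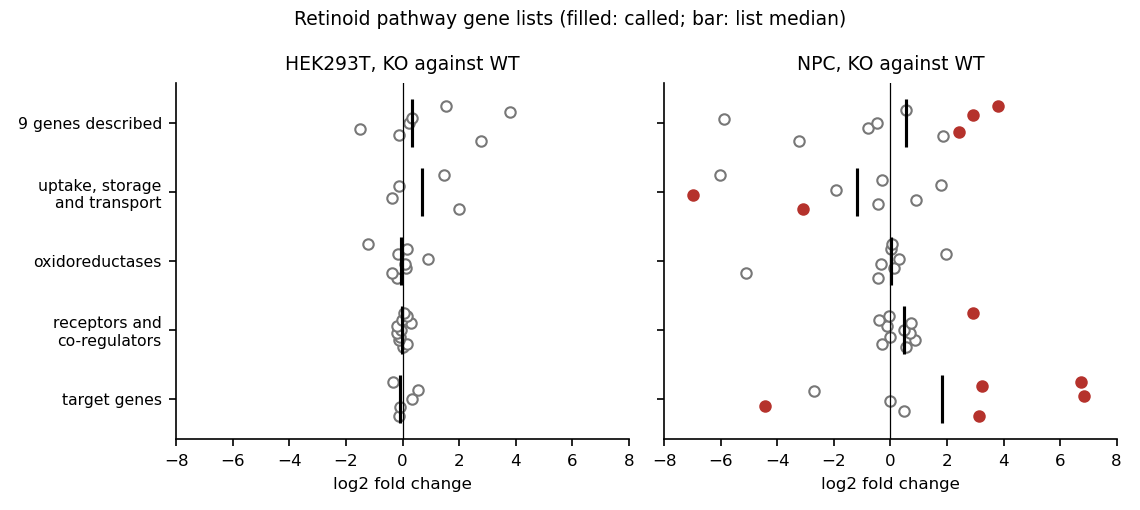
Log2 fold change of KO against WT (horizontal axis) for the 9 genes and the 4 pathway lists (rows) in HEK293T cells and NPCs; each point is a gene, filled where called, and bars mark list medians, with fitted values also for genes at 0 counts in 1 genotype. Called genes appear only on the NPC side, where the target list has its median at 1.81 and the uptake list at −1.19.

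Markers of cell types moved with the NPC genotype, in a comparison that called 8.45% of 20577 genes higher and 8.36% lower. Of 11 neural progenitor markers, 9 fell, with a median log2 fold change of −3.85, whereas NES (adjusted p = 0.231) was not called. Of 12 mesenchymal markers 6 rose (median 1.85), of 8 neural crest markers 4 rose (median 2.42), of 6 epithelial markers 3 rose (median 1.65), of 8 roof plate and choroid plexus markers 2 rose and 3 fell (median −1.60), and of 4 pluripotency markers 2 fell (median −3.49). DESeq2 called 7 mesenchymal and 4 neural crest markers higher and 9 progenitor markers lower, and voom called 4, 2 and 7. For the roof plate list DESeq2 called 1 higher and 3 lower and voom 3 and 2, and the epithelial and pluripotency counts were equal with each tool.

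The summed mesenchymal list stood at 2441 and 3063 CPM in WT and at 8795 and 9641 CPM in KO NPCs. The neural crest list stood at 56.8 and 72.9 against 231 and 325 CPM, with SOX10 at 0 and 0.102 CPM in WT and at 7.21 and 1.40 CPM in KO libraries. The summed neural progenitor list, which NES dominates, overlapped at 2940 and 3994 CPM in WT and 3193 and 3257 CPM in KO NPCs. The part of these marker changes in the values of RARB, CYP26B1, ALDH1A3 and CYP26A1 was not tested.

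The WT NPC libraries also differed from each other. LMX1A, a roof plate factor, stood at 72.6 CPM in S3 and 12.5 CPM in S5, and CRABP2 at 112 and 46.8 CPM, whereas LRAT stood at 17.6 and 97.9 CPM. RARB differed little between the same libraries (0.426 and 0.512 CPM), as did CRABP1 (318 and 355 CPM). On few counts, CYP26A1 (0.189 and 0.512 CPM), CYP26B1 (0.284 and 0.102 CPM) and ALDH1A3 (0.379 and 1.02 CPM) differed more.

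The third comparison was the same knockout in HEK293T cells. No member was called of the 7 that passed the filter on low counts (ALDH1A1 had 2 counts in all and CRABP1 none), in a comparison that called 0.489% of 19018 genes in either direction. By edgeR 4 members had an unadjusted p below 0.05 (RARB, ALDH1A2, DHRS3 and CRABP2), beside 1354 of all genes, and DESeq2 called 1, RARB. The median over the 7 was 0.34 on the log2 scale, against 0.01 over all genes. KO libraries lay wholly above WT for ALDH1A2, RARB and DHRS3 (3 of 7), which held for 7.16% of genes tested.

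In each of these 3 genes S18 held the highest value, S19 came next and S20 was nearest to WT. ALDH1A2 stood at 14.6, 8.64 and 14.2 CPM in WT libraries S15, S16 and S17 and at 206, 34.7 and 16.1 CPM in KO libraries S18, S19 and S20. Its KO libraries were 16.5, 2.78 and 1.29 times the WT mean, so that S18 carried most of the KO mean of 85.7 ± 105 CPM (SD, n = 3), which was 25.4 CPM without it. The log2 fold change was 2.78 (SE 0.737, adjusted p = 0.275), it was 1.03 (adjusted p = 0.344) without S18, and it was called without S20 (3.28, adjusted p = 0.0281); over 13 settings the adjusted p ran from 0.0281 to 0.765.

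RARB stood at 7.04, 8.71 and 6.47 CPM in WT and at 32.5, 21.2 and 10.5 CPM in KO HEK293T libraries. These were 4.38, 2.87 and 1.42 times the WT mean, and the lowest KO library lay above the highest WT library. The log2 fold change was 1.53 (SE 0.341, adjusted p = 0.125). It was 1.10 without S18 (adjusted p = 0.171) and 1.86 without S20 (adjusted p = 0.00634), and DESeq2 gave an adjusted p of 0.000792; the range over 13 settings was 0.000792 to 0.587.

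DHRS3 was close to constant in WT HEK293T cells, at 30, 32 and 29 counts (0.982 to 1.10 CPM), and stood at 40.5, 1.72 and 1.35 CPM in S18, S19 and S20 (928, 56 and 36 counts). S18 was 39.4 times the WT mean, while the others were 1.67 and 1.31 times. The log2 fold change of 3.81 (SE 1.11, adjusted p = 0.366) dropped to 0.58 without S18 (adjusted p = 0.894; range over 13 settings 0.0834 to 0.967).

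The groups of the other members overlapped. CRABP2 stood at 2.17, 9.98 and 2.17 CPM in WT and at 0.874, 1.35 and 2.77 CPM in KO libraries, where S18 was lowest and WT library S16 held most of the WT counts (log2 fold change −1.51, SE 0.617, adjusted p = 0.649). Without S16 it was −0.38 (adjusted p = 0.919), and over 13 settings the adjusted p ran from 0.289 to 0.919. CYP26A1 stood at 4.81, 3.10 and 5.56 CPM in WT and 3.41, 7.55 and 4.60 CPM in KO libraries (0.21, 95% interval −0.53 to 0.96). CYP26B1 stood at 3.84, 2.55 and 2.51 CPM in WT and 4.85, 3.50 and 2.91 CPM in KO libraries, with S18 again first and S20 last but close to the WT mean (0.34, 95% interval −0.34 to 1.01). ALDH1A3 stood at 0.935, 2.06 and 0.779 CPM in WT and 0.568, 0.737 and 2.13 CPM in KO libraries (−0.13, 95% interval −1.35 to 1.08).

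**Figure D4:**
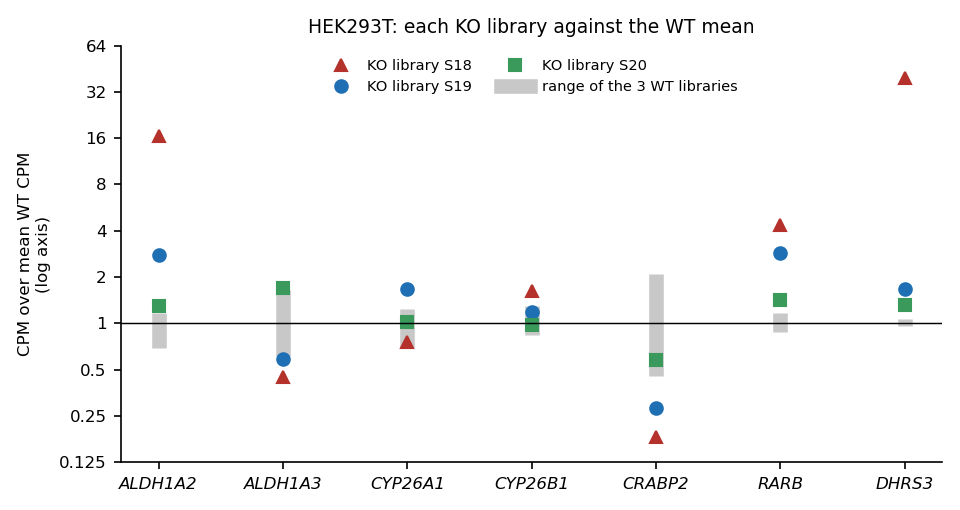
CPM of each HEK293T KO library divided by the mean of the 3 WT libraries (vertical axis, log scale) for the 7 genes tested; grey bars give the range of the WT libraries. ALDH1A2, RARB and DHRS3 lie above the WT range in all KO libraries, with S18 at 16.5, 4.38 and 39.4 times the WT mean.

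No gene of the 4 pathway lists was called in KO HEK293T cells (0 of 28 tested by edgeR, DESeq2 and voom; 0 at an unadjusted p below 0.05), and none of the marker lists (0 of 35 by each tool; 3 at an unadjusted p below 0.05). The 5 target genes tested lay on both sides in S18. TGM2 stood there at 1.005 CPM, BHLHE40 at 21.6 CPM and MEIS1 at 8.17 CPM, each the lowest of the 6 libraries, against 2.99 to 3.74, 42.9 to 56.5 and 8.84 to 12.7 CPM elsewhere. MEIS2 stood at 49.2 CPM and RET at 1.31 CPM, each the highest, against 28.9 to 37.5 and 0.508 to 1.27 CPM elsewhere.

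Whether the KO effect itself differed between cell types was tested with an interaction term over all 10 libraries. CYP26B1 rose more in NPCs (log2 difference 2.59, SE 0.649, adjusted p = 0.0186), as did RARB (2.28, SE 0.615, adjusted p = 0.0262), and CYP26A1 was lower in KO NPCs relative to HEK293T cells (adjusted p = 0.0214; fitted against libraries at 0 counts). The test called 6.01% of 19255 genes higher and 6.22% lower. Of 33 genes of the pathway lists it called BHLHE40, RET, TGM2, FABP5 and NCOA3 higher and MEIS1 lower.

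Each call on a member needed both KO NPC libraries and WT library S5, since no member was called without S5, S1 or S2. The RARB call was also lost without S16 (adjusted p = 0.0552) or S3 (0.106) and with voom (0.132), and CYP26A1 was lost with voom (0.0577). Over 16 settings the adjusted p ran from 0.00380 to 0.132 for RARB, from 0.00602 to 0.0882 for CYP26B1 and from 0.00580 to 0.0881 for CYP26A1. The difference for ALDH1A3 had an adjusted p of 0.107 and was called without S20 (adjusted p = 0.0398; range 0.0398 to 0.438); that for ALDH1A2, which had like signs in both cell types, had an adjusted p of 0.828.

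Ordered by mean CPM, the 4 groups ran in the same sequence for several members (levels set across tables that were scaled separately). RARB, ALDH1A2 and DHRS3 all ran KO HEK293T, WT HEK293T, KO NPC and WT NPC from high to low, and CYP26B1 had the same order with overlapping HEK293T groups. For RARB the ranges of WT HEK293T cells and KO NPCs overlapped, and for DHRS3 those of the NPC groups. Without S18 the KO HEK293T means fell to 15.9 CPM for RARB, 25.4 CPM for ALDH1A2 and 1.53 CPM for DHRS3. The WT HEK293T means were 7.41, 12.5 and 1.03 CPM, so that the order held. CYP26A1 ran KO HEK293T, WT HEK293T, WT NPC and KO NPC, with overlapping HEK293T groups. CRABP1 and CRABP2 ran WT NPC, KO NPC and then HEK293T cells, and the NPC groups overlapped for CRABP2. ALDH1A1 was highest in WT NPCs, and its other groups overlapped. ALDH1A3 was the only member with its highest mean in KO NPCs (3.77 CPM), and its neighbouring groups overlapped throughout.

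The genes next to the members were checked, since reads of close or overlapping genes can be shared. No gene tested overlapped a member. TOP2B, a topoisomerase gene on the opposite strand, lies 0.046 kb beyond RARB, and its log2 fold change in NPCs was −0.57 (adjusted p = 0.0139), opposite in sign to that of RARB. CYP26C1, another hydroxylase 3.94 kb before CYP26A1, had 0.0473 and 0.358 CPM in WT and 0 counts in KO NPCs (adjusted p = 0.148). Of the neighbours, ANXA1 beside ALDH1A1 (1.20) and ADAM10 beside ALDH1A2 (1.23) rose in KO NPCs, CFAP107 beside DHRS3 fell (adjusted p = 0.0126), and none was called in HEK293T cells.

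Genes with the most similar pattern were ranked by the mean absolute difference of centred log2(CPM + 1) values over the 10 libraries, among 14941 genes. RARB was nearest to PDE8A (0.387) and BFSP1 (0.425), CYP26B1 to CYTH1 (0.130) and PRR5 (0.138), and CYP26A1 to CDK5 (0.162) and ICOSLG (0.165). CRABP1 was nearest to ADAMTS12 (0.211) and COL11A1 (0.224), CRABP2 to MAGI2-AS3 (0.367) and JAKMIP2 (0.408), and ALDH1A3 to LYPD5 (0.253) and COL21A1 (0.259). ALDH1A2 was nearest to ZBED10P (0.555) and RNA5-8SP6 (0.591). DHRS3 was nearest to RNA5SP202 (0.214). These values are a description over libraries of 2 cell types and carry no test.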

How the data were processed

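The authors aligned RNA-seq reads with HISAT2 (build hg19) and used featureCounts for those with a unique position on genes and repeats (versions, gene annotation and the strand setting for these libraries are not given in the sources used here). The deposited values are raw counts per Ensembl gene, in 1 table of 6 HEK293T libraries (22750 genes) and 1 of 4 NPC libraries (20965 genes). Of 24050 identifiers, 23273 matched a symbol in GENCODE v44 lifted to hg19, which also gave exon lengths for RPKM.

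Genes with fewer counts than libraries were discarded. TMM scaling and quasi-likelihood tests used edgeR 4.0.16 in R 4.3.3, with Benjamini-Hochberg adjustment over all genes. Genes were called at an adjusted p below 0.05 and a fold change above 2. The study used voom, which here is an alternative (limma 3.58.1), as are DESeq2 1.42.0, other scalings, other filters and leaving out each library. Each test was run on simulated counts with changes placed only in genes with high counts, so this check does not cover members with few counts. Standard errors were derived from the F statistic. With a library left out of an NPC group, the lone library is assumed to vary like the other groups. No label pairs libraries across genotypes, and p-values measure the spread between libraries, which may be technical. Promoter sequences are from RefSeq, and those of 9 of 9 members matched; 15 of their 16 windows were placed on hg19 by exact match of the sequence, and 1 of DHRS3 was not.

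The 9 genes and all lists were chosen with earlier results of these data known. All 9 members are named in every library; of the pathway lists, genes called in a comparison are named, and the marker lists are given by counts with examples, although the rule set for naming covered their called genes too. Some genes of the lists are not reported here and enter none of their counts, medians or sums. For likeness, the 2 nearest genes are named where they have a symbol (1 of 2 for DHRS3); ALDH1A1, below 1 CPM on average in every group, was not ranked. The pathway lists cover uptake and storage, oxidoreductases, receptors and co-regulators, and target genes. The marker lists cover neural progenitors, mesenchyme, neural crest, roof plate and choroid plexus, epithelium, pluripotent cells and kidney.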

Additional observations from a re-analysis of the deposited data

Results flagged for a closer look

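The effect of the ZNF274 knockout differed between the cell types for 3 of the 9 genes by the interaction term (edgeR, all 10 libraries). This test called 6.01% of 19255 genes higher and 6.22% lower. With voom CYP26B1 alone was called, and the dependence of the calls on single libraries is given above. The log2 difference, NPC minus HEK293T, was 2.59 for CYP26B1 (adjusted p = 0.0186), 2.28 for RARB (adjusted p = 0.0262) and −6.37 for CYP26A1 (adjusted p = 0.0214). The CYP26A1 value is a fitted value against KO NPC libraries with 0 counts and gives no bound. CYP26B1 was higher in both KO NPC libraries than in both WT NPC libraries, whereas its HEK293T groups overlapped. RARB was higher in all KO libraries than in all WT libraries of the same cell type. Such a position held for 33.3% of all genes tested in NPCs and 7.16% in HEK293T cells, and it carries no test. No group held the 4 libraries or more that a check for single outlying samples needs.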

How the results depend on the processing

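Among members called, the KO comparison in HEK293T cells gave 0 in the reported fit, 1 with DESeq2 (RARB) and 0 to 2 with a library left out, the 2 being ALDH1A2 and RARB without S20. In NPCs the count of 3 became 1 to 4 with a library left out, with RARB alone left without S1, and 2 to 4 under the other settings. The difference between cell types gave 3, then 1 with voom (CYP26B1), and 0 to 4 with a library left out. The WT comparison gave 7, with 6 to 8 under all alternatives.

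Single log2 fold changes turned direction only with a library left out and never for a called gene. In HEK293T cells ALDH1A3 ran from −0.93 to 0.42 and CYP26A1 from −0.15 to 0.44. In NPCs CRABP2 ran from −0.98 to 0.29, the positive value without S3. For the difference between cell types CRABP2 ran from −0.085 to 1.82, ALDH1A2 from −1.40 to 0.84 and ALDH1A1 from −3.32 to 0.075. The cause was not tested. No paired analysis was possible because the labels give no numbers shared between genotypes. Counts under 10 in WT NPCs (RARB, ALDH1A3 and CYP26A1 in S3, DHRS3 in S5, and CYP26B1, ALDH1A2 and ALDH1A1 in both) limit the precision of each fold there.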
